A study of Xenopus laevis with 8 samples.

Results

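The genes described here encode the fibroblast growth factor (FGF) pathway and the Eph receptors with their ephrin ligands, measured in anterior endoderm of Xenopus laevis embryos after activation of Neurogenin 3. They were taken by symbol alone, with the homeolog suffix .L or .S removed. The symbols begin with fgf, epha, ephb, efna, efnb, spry or spred, or are dusp6, etv1, etv4 or etv5, and where a symbol had several probe sets the brightest over all arrays stood for it. This gave 49 genes of 11303 named genes on the array. They are 9 FGF ligands, 2 FGF homologous factors, 2 FGF-binding proteins, 9 FGF receptors, 8 feedback and ETS genes, 8 ephrins and 7 Eph receptors. The prefixes also took 4 genes of other kinds, fgfr1op2.S, spryd3.L, spryd4.S and spryd7.S, which are neither FGF receptors nor Sproutys.

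All 8 arrays came from embryos that had received mRNA for Ngn3-GR in 2 dorsal vegetal blastomeres at the 8-cell stage. In Ngn3-GR a proneural transcription factor, Neurogenin 3, is fused to the ligand-binding domain of the glucocorticoid receptor and becomes active when dexamethasone is added. The DEX group (4 arrays) was kept in 10 µM dexamethasone for 4 hours from Nieuwkoop and Faber (NF) stage 12, the no_DEX group (4 arrays) without it, and endoderm was dissected at stage 15. The study looked for genes that were higher in the DEX group. Both groups carry the fusion, the labels name no promoter or cell type that limits it within the injected cells, and embryos given dexamethasone without the fusion were not analysed here. Each group has biological replicates numbered 1 to 4, and no label says what a number stands for.

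FGFs are secreted ligands that bind receptor tyrosine kinases together with heparan sulphate and signal through Ras and the MAP kinase cascade. The cascade turns on ETS factors such as etv1 and etv4, and it turns on its own inhibitors, the Sproutys, the Spreds and the ERK phosphatase dusp6, so that levels of these genes are often used to follow FGF signalling. Eph receptors bind ephrins on neighbouring cells and signal in both directions, which sorts cells at tissue borders and guides migrating cells and axons. In the frog embryo FGFs pattern mesoderm and posterior neural tissue, and Ephs and ephrins separate germ layers, hindbrain segments and streams of neural crest.

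Values are log2 expression as deposited, and a change is the DEX value minus the no_DEX value on that scale. Array medians lay between 6.02 and 6.12. The highest of 17 control probe sets for sequences absent from the sample read 4.40, and signals at or under that value were taken as background. The endoderm markers sox17a.L and foxa2.L averaged 9.98 and 8.85, but the neural plate gene sox2.L (9.79) and the muscle actin gene actc1.L (10.50) were also far above background, and so was the myogenic gene myod1. The neural plate markers stood lower in the DEX group for 15 of 15 genes (median change −0.33, 0 called with or without a replicate block). Skeletal muscle and somite markers stood lower for 15 of 16 (median −0.75, 0 called). Neural crest markers stood lower for 8 of 9 (median −0.31, 0 called), and 5 of 7 notochord markers did (median −0.44), of which shh.L fell with the block. Endoderm markers stood higher for 11 of 15 (median 0.16, 0 called) and epidermis markers for 8 of 11 (median 0.08, 0 called). Within replicate numbers 1 to 4 the endoderm median was 0.64, −0.05, 0.08 and −0.09. The counts of these lists take .L and .S homeologs separately, so some genes count more than once. They include genes at background: 14 of 15 neural plate, 12 of 16 muscle and 14 of 15 endoderm markers had means above it. In such bulk tissue fewer cells of a type and less RNA per cell cannot be told apart.

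With dexamethasone 1 of the 49 genes rose, the FGF homologous factor fgf13.L, and 0 fell, at an adjusted p under 0.05 over all probe sets in limma. This call was made with the replicate number as a block, which was the alternative to the main fit without a block. With the block 0.329% of all probe sets rose and 0.224% fell. Without the block 0 of the 49 passed in either direction, against 0.00615% of all probe sets higher and 0% lower. The number at an unadjusted p under 0.05 was 4 of 49 without the block (8.16%, against 4.24% of all probe sets) and 9 of 49 with it (18.4%, against 12.5%). The median change over the 49 genes was −0.01, with 24 above 0 and 25 below, and the median over all probe sets was 0.002.

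FGF homologous factors resemble FGFs in sequence but stay inside the cell. They bind voltage-gated sodium channels, and fgf13 also binds microtubules in neurons. The fgf13.L probe set measured 4.50, 4.48, 4.36 and 5.62 with dexamethasone (replicates 1 to 4, the order used for all arrays here). Without it the arrays measured 3.74, 3.25, 3.60 and 4.42. The groups overlap, because no_DEX replicate 4 lies above DEX replicate 3, but within every replicate number the DEX array is the higher. The changes within pairs were 0.75, 1.23, 0.76 and 1.20.

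The fgf13.L mean was 4.74 ± 0.59 (SD, n = 4) with dexamethasone and 3.75 ± 0.49 (SD, n = 4) without, a difference of 0.99 between the log2 values as deposited. No fold is given, because the no_DEX mean lies under the background limit. The adjusted p from limma was 1.00 unblocked and 0.0171 blocked, with a 95% interval of 0.74 to 1.24 for that difference in the fit with the block. Without the block the 95% interval was wider, from 0.25 to 1.72. The signal was close to background. It exceeded 4.40 on 3 of 4 DEX arrays and on 1 of 4 no_DEX arrays. DEX replicate 4 stood apart from the other 3 DEX arrays, and without it the difference was 0.69. When pairs were dropped in turn from the blocked fit, fgf13.L passed without pair 1 (adjusted p = 0.0499) and without pair 4 (0.0474), but not without pair 2 (0.103) or pair 3 (0.0563). The only other homologous factor measured, fgf12.S, was at background with a mean of 3.32 and stood at −0.02 (adjusted p = 0.969 with the block).

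**Figure D1:**
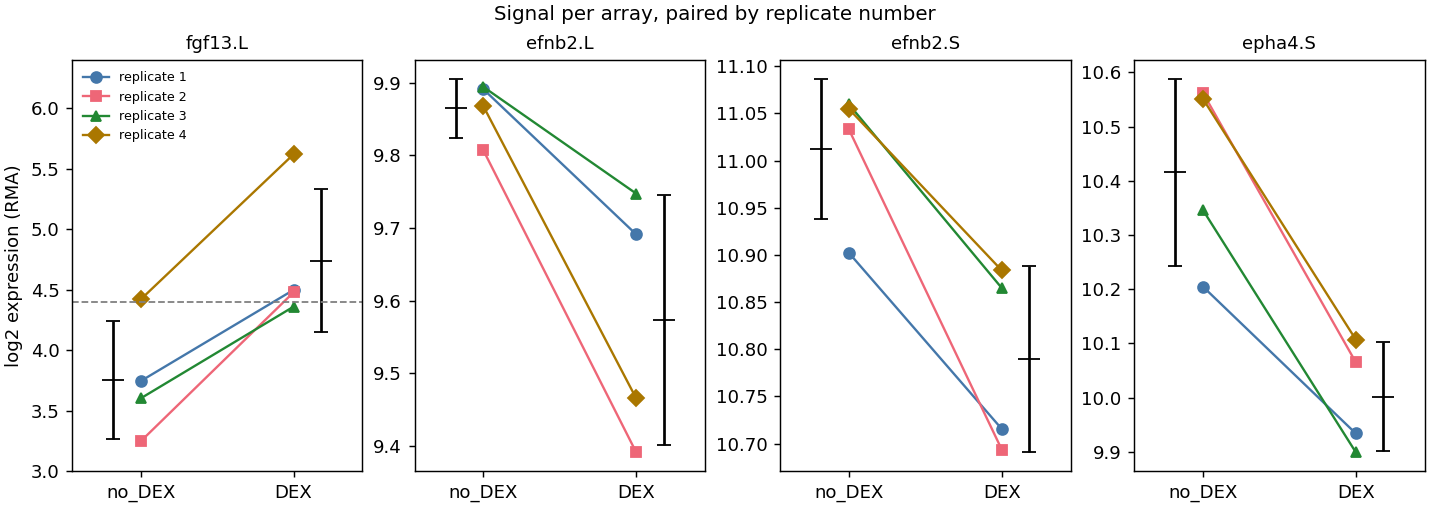
Log2 expression of fgf13.L, efnb2.L, efnb2.S and epha4.S on each array, with lines joining arrays of the same replicate number and black bars for the group mean and SD (n = 4). The panels have separate vertical axes, and the dashed line in the fgf13.L panel is the highest background control (4.40). The fgf13.L signal is higher with dexamethasone in 4 of 4 pairs and the other 3 are lower in 4 of 4 pairs, of which only fgf13.L passed, with the replicate block.

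Most FGF ligands were not measurable on these arrays. Of 9 ligands, 3 had a mean above background, namely fgf3.L, fgf20.L and fgf10.S. The other 6, fgf1.L, fgf2, both homeologs of fgf4, fgf7.L and fgf9.S, were at or under 4.40 on all 8 arrays, so a level or change cannot be read for them. The 9 changes lay between −0.09 and 0.35, with a median of −0.01 and 0 called in either fit.

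Among the 3 measured ligands fgf20.L differed most. It measured 6.50, 6.59, 7.10 and 7.38 with dexamethasone and 6.33, 6.18, 7.12 and 6.53 without. The groups overlap, pair 4 held the widest difference (0.85) and pair 3 held none to speak of (−0.02). The change was 0.35 (adjusted p = 0.341 with the block, 95% interval 0.04 to 0.67), and with 1 array or pair left out it ranged over 0.18 to 0.55. The ligand fgf3.L, which is made in the hindbrain and tail of the vertebrate embryo, stood at −0.01 (95% interval −0.30 to 0.27 with the block). Its pair changes were 0.28, 0.06, −0.48 and 0.09, so 3 pairs were above 0 and pair 3 was below. The mesenchymal ligand fgf10.S, at a mean of 4.56 just above background, stood at −0.01. The 2 FGF-binding proteins, carriers that release FGFs from matrix, were at background on all arrays (fgfbp1.S 3.34 and fgfbp2.L 3.20).

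The FGF receptors were mostly well above background and split by gene. Of 9 receptor symbols, 7 had a mean above background, 4 of these stood higher with dexamethasone, 3 lower, and 0 passed in either fit. The higher ones were fgfr4.S (0.23, adjusted p = 0.451 with the block), fgfr4.L (0.15), fgfr1-a (0.12) and fgfr1.L (0.06). The lower ones were fgfr3.L (−0.35, adjusted p = 0.301 with the block), fgfrl1.L (−0.24, 0.365) and fgfr2.L (−0.18, 0.595). With 1 array or pair left out these ranged over −0.48 to −0.14 for fgfr3.L, −0.41 to −0.05 for fgfrl1.L and −0.37 to −0.04 for fgfr2.L. All of these but fgfrl1 encode receptor tyrosine kinases, while fgfrl1 encodes a receptor-like protein without a kinase domain. The symbol fgfr1-a is an older name that the gene table lists as a synonym of fgfr1.L, so both probe sets may measure fgfr1.

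In the receptors that stood higher, pair 1 held most of the difference. In fgfr4.L the arrays measured 9.87, 9.91, 9.86 and 10.08 with dexamethasone and 9.25, 9.83, 9.82 and 10.19 without. In fgfr4.S they measured 9.74, 9.79, 9.75 and 9.97 with dexamethasone and 9.11, 9.76, 9.60 and 9.85 without. In both homeologs no_DEX replicate 1 was the lowest array, and pair 1 held a change of 0.62. Over the other pairs the changes lay between −0.12 and 0.08 in fgfr4.L and between 0.03 and 0.15 in fgfr4.S. The sign for fgfr4.L rested on that array: its change without no_DEX replicate 1 was −0.02. In fgfr1.L the pair changes were 0.48, −0.02, −0.07 and −0.16, so pair 1 alone was above 0.

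In fgfr3.L the arrays measured 6.68, 6.73, 6.49 and 6.24 with dexamethasone and 6.65, 7.50, 6.72 and 6.66 without. Array no_DEX replicate 2 was far above the other no_DEX arrays, and pairs 2 to 4 were below 0 while pair 1 was at 0.03. The truncated receptor gene fgfrl1.L had pair changes of 0.001, −0.50, −0.15 and −0.31, and fgfr2.L of 0.24, −0.44, −0.21 and −0.31. A second fgfr2.L probe set (mean 8.57) stood at −0.33 with pair changes of 0.09, −0.72, −0.10 and −0.59 (adjusted p = 0.387 with the block). Both fgfr2.L probe sets thus had pair 1 above 0 and the other pairs below. The homeologs fgfr3.S and fgfrl1.S were at background on all 8 arrays and the second fgfrl1.L probe set had a mean of 4.13, so no change can be read for them.

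**Figure D2:**
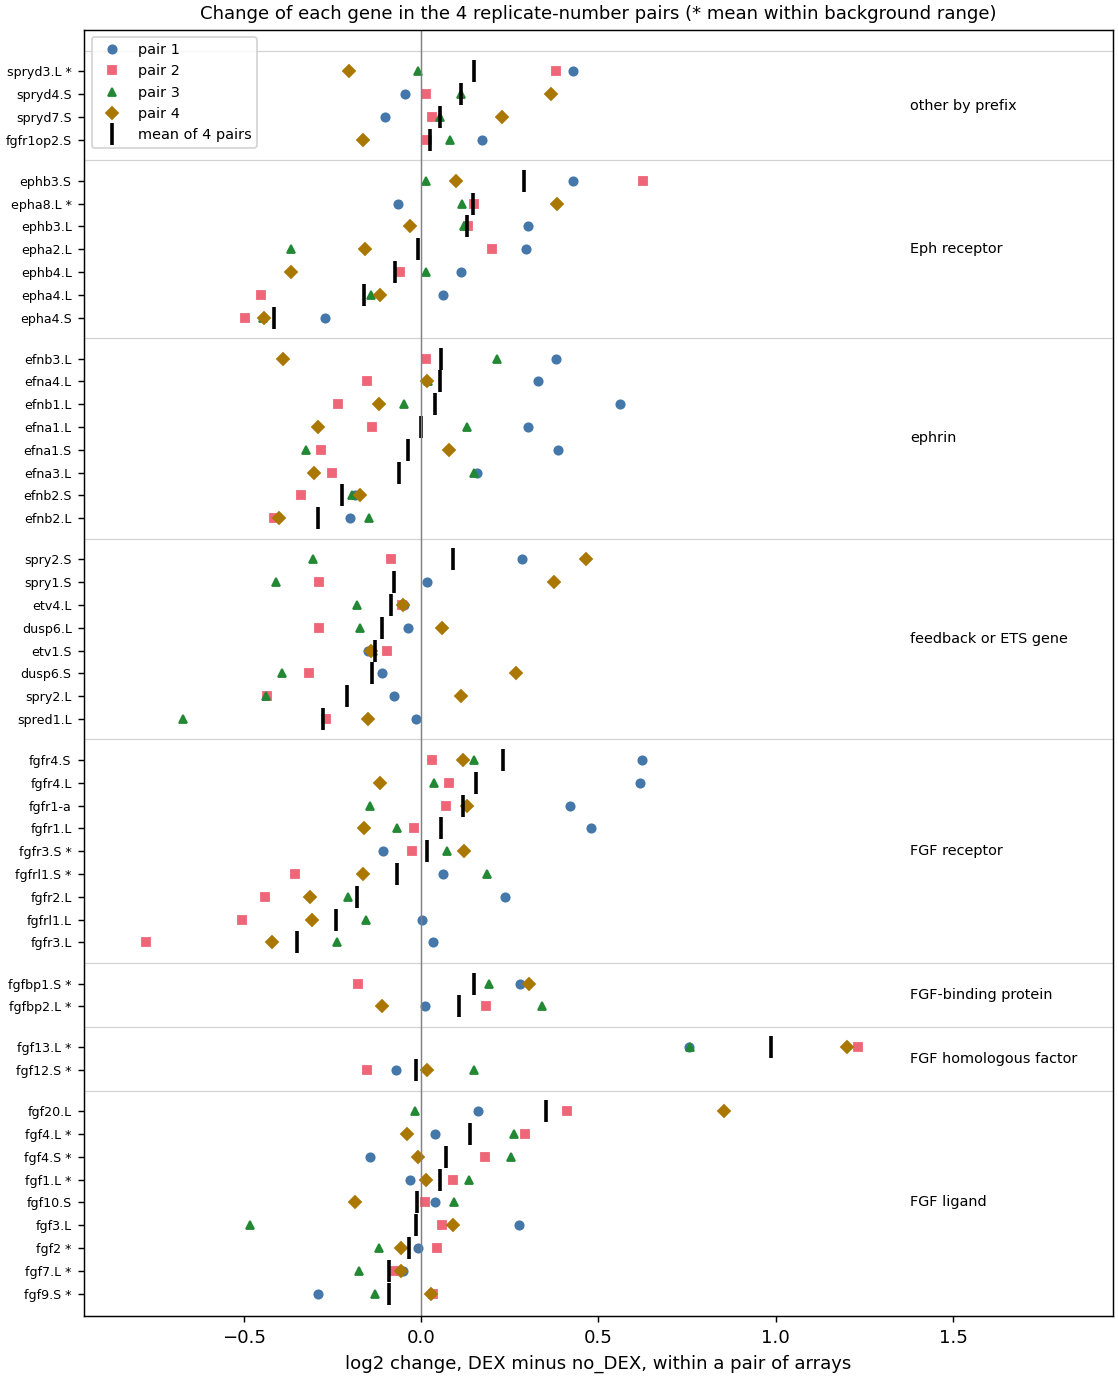
Log2 change (DEX minus no_DEX) of each of the 49 genes within each pair of arrays of the same replicate number, grouped by role. Coloured symbols are the 4 pairs, black bars are their mean, and a star marks genes whose mean lies at or under 4.40. Only fgf13.L has all pairs above 0.7, and for most receptors and ephrins pair 1 lies to the right of the other pairs.

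The feedback and ETS genes stood lower with dexamethasone for 7 of 8 genes, by small amounts, and the probe sets of 2 of them share probes. All 8 were above background, the median change was −0.12, the changes lay between −0.28 and 0.09, and 0 passed in either fit (smallest adjusted p 0.371 with the block, over the brightest probe set of each). The Ras pathway inhibitor spred1.L stood lowest at −0.28. Its pair changes were −0.01, −0.27, −0.67 and −0.15, so all pairs were below 0 and pair 3 differed most, while the groups overlap. With 1 array or pair left out its change ranged over −0.44 to −0.09. The Sprouty gene spry2.L stood at −0.21 (adjusted p = 0.499 with the block) and its homeolog spry2.S at 0.09 (0.846). In each of the 4 pairs spry2.S lay above spry2.L in change, by 0.14 to 0.36, and the difference was not tested. For the ERK phosphatase, dusp6.L stood at −0.11 and dusp6.S at −0.14, and spry1.S stood at −0.08.

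The pairs differed within this class. Its median was −0.04, −0.28, −0.35 and 0.09 in pairs 1 to 4. In pair 4, spry1.S, both spry2 homeologs and both dusp6 homeologs were all above 0, with spry2.S at 0.46 and spry1.S at 0.38, while in pairs 2 and 3 all of them were below 0. The notochord markers had medians of −0.33, −0.60, −0.70 and 0.11 in the same pairs, and the skeletal muscle and somite markers had −0.86, −1.52, −0.99 and 0.19. In these lists too, pairs 2 and 3 were below 0 and pair 4 was above. Both replicate 4 arrays had little muscle signal, however. The median of the 12 muscle and somite markers above background was 6.37 on DEX replicate 4 and 5.63 on no_DEX replicate 4. On the other arrays it was 7.08 to 8.88. The troponin gene tnnc2.S measured 3.61 and 3.45 on the replicate 4 arrays, under 4.40. The summed log2 signal of the 12 muscle and somite markers above background ran from 78.96 to 93.40 on DEX arrays and from 73.58 to 105.58 on no_DEX arrays. The part of these tissues in the feedback gene values was not tested.

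The ETS factor genes etv1 and etv4 are read out by the MAP kinase cascade. The etv1.S probe set stood at −0.13, with pair changes of −0.15, −0.10, −0.14 and −0.14, and etv4.L at −0.08 (adjusted p = 0.527 and 0.727 with the block). These probe sets derive from the same array target and their names carry suffixes for shared probes, so these values of etv1.S and etv4.L are not separate measurements. A second etv4.L probe set without such a suffix (mean 8.53) stood at −0.08 as well, with 1 of 4 pairs above 0. Another etv4.L probe set with such a suffix (mean 10.42) stood at −0.05, also with 1 of 4 pairs above 0. Of 2 further etv1.S probe sets without the suffix, 1 (mean 9.98) stood at −0.22 and was lower in 4 of 4 pairs (adjusted p = 0.271 with the block), and the other (mean 9.44) stood at −0.05 (0.860). The first of these comes from the same target as the shared probes. In the fit with the block the 95% intervals of the 8 genes ran from −0.54 to 0.39 at their outer ends. In the fit without it they were wider, from −0.81 (spred1.L) to 0.47 (spry2.S).

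Among the Eph/ephrin genes the clearest separation of the groups was downward, in efnb2 and epha4. Of the 15 genes, 3 had groups that did not overlap, efnb2.L, efnb2.S and epha4.S, all lower with dexamethasone. These were also the only non-overlapping ones among the 49 (6.12%, against 1.18% of all probe sets lower), and 0 were higher without overlap (against 1.58% of all probe sets). The efnb2.L and efnb2.S probe sets come from the same sequence cluster, so the 6.12% may count a signal more than once. None of the 3 passed in either fit.

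Ephrin-B2, the product of efnb2, is a transmembrane ligand of EphB receptors and of EphA4. The efnb2.L probe set measured 9.69, 9.39, 9.75 and 9.47 with dexamethasone and 9.89, 9.81, 9.89 and 9.87 without. Every DEX array lay below every no_DEX array. The change was −0.29, a level 1.22 times lower (blocked adjusted p = 0.198, 95% interval −0.48 to −0.10; unblocked adjusted p = 1.00). The homeolog efnb2.S measured 10.72, 10.69, 10.86 and 10.88 with dexamethasone and 10.90, 11.03, 11.06 and 11.05 without. Again the groups did not overlap, but DEX replicate 4 at 10.88 lay just under no_DEX replicate 1 at 10.90. Its change was −0.22 (adjusted p = 1.00 unblocked and 0.274 blocked, 95% interval −0.40 to −0.05 with the block). Pair changes of both homeologs were below 0 in 4 of 4 pairs. Both efnb2 probe sets were designed from the same sequence cluster, so they may read each other's transcripts.

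EphA4 is a receptor for ephrins of both the A and the B type, known in the frog for the hindbrain and the neural crest. The epha4.S probe set measured 9.93, 10.07, 9.90 and 10.11 with dexamethasone and 10.20, 10.56, 10.35 and 10.55 without. All 4 DEX arrays lay below all 4 no_DEX arrays. The change was −0.41, a level 1.33 times lower, with pair changes of −0.27, −0.50, −0.45 and −0.44. The adjusted p from limma was 0.771 unblocked and 0.0808 blocked (95% interval −0.60 to −0.23 with the block), the smallest adjusted p with the block among the genes that did not pass. The homeolog epha4.L, with a mean of 6.18, stood at −0.16 (adjusted p = 0.569 with the block). Its pair 1 was above 0 and the other pairs below. Both epha4 probe sets were designed from the same sequence cluster, so they too may read each other's transcripts.

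The neural plate markers also stood lower. Their median change in pairs 1 to 4 was −0.23, −0.44, −0.22 and −0.43, and sox2.L stood at −0.23, −0.54, −0.36 and −0.49. The summed log2 signal of the 14 neural plate markers above background ran from 114.50 to 120.94 on DEX arrays and from 120.22 to 127.74 on no_DEX arrays. The neural crest markers, 8 of 9 lower, had pair medians of 0.12, −0.71, −0.40 and −0.25. The part of neural tissue in the values of efnb2 and epha4 was not tested.

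The other Eph receptors and ephrins differed less or in the other direction. The EphB receptor genes ephb3.S and ephb3.L stood at 0.29 and 0.13. The ephb3.S arrays measured 9.18, 9.02, 9.41 and 9.40 with dexamethasone and 8.75, 8.39, 9.40 and 9.30 without. Its DEX arrays were thus higher in 4 of 4 pairs, widely in pairs 1 and 2 and barely in pair 3 (adjusted p = 0.342 with the block), and with 1 array or pair left out the change ranged over 0.10 to 0.44. The probe set name of ephb3.S carries a suffix for shared probes, so it may also read other transcripts. The receptors ephb4.L, known in vessels, and epha2.L, an epithelial Eph receptor, stood at −0.07 and −0.01, and epha8.L was at background. Among the other ephrins, efna1.L (0.001), efna1.S (−0.04), efna3.L (−0.06), efna4.L (0.05), efnb1.L (0.04) and efnb3.L (0.05) all differed by less than 0.1. The glycosylphosphatidylinositol-anchored efna ephrins and these efnb ephrins were nonetheless spread over pairs. In efnb1.L the pair changes were 0.56, −0.23, −0.05 and −0.12, and in efna1.L 0.30, −0.14, 0.13 and −0.29. Of the 4 genes of other kinds, fgfr1op2.S stood at 0.03, spryd4.S at 0.11 and spryd7.S at 0.05, and spryd3.L was at background.

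The class medians differed from pair to pair. The ephrin median was 0.31 in pair 1 and −0.24, −0.01 and −0.23 in pairs 2 to 4. The FGF receptor median was 0.24 in pair 1 and −0.03, −0.07 and −0.16 in the others. For Eph receptors the medians were 0.11, 0.13, 0.01 and −0.12, and for FGF ligands −0.01, 0.06, −0.02 and −0.01. The FGF receptor, Eph receptor and FGF ligand medians include genes at background. Above background they were 0.42, −0.02, −0.14 and −0.16 for FGF receptors and 0.20, 0.04, −0.06 and −0.14 for Eph receptors. The 3 FGF ligands above background had 0.16, 0.06, −0.02 and 0.09. Over all named genes the medians were −0.02, 0.01, 0.02 and 0.02. The endoderm markers had a median of 0.64 in pair 1 and −0.05, 0.08 and −0.09 in pairs 2 to 4. Pair 1 was thus also the pair with the highest endoderm signal in DEX relative to no_DEX. The medians of epidermis markers (0.29, −0.02, 0.13 and −0.01) and neural crest markers (0.12, −0.71, −0.40 and −0.25) were likewise highest in pair 1. Those of the neural plate, notochord and muscle markers were not. Of the 8 ephrins, 6 were above 0 in pair 1 and 0 in the mean of pairs 2 to 4, and of the 9 FGF receptors 8 were above 0 in pair 1 and 3 in the mean of the others. Pair 1 was singled out after the values were seen, and its part in the class values was not tested. No class was compared with another by a test, because the genes were chosen with results known.

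**Figure D3:**
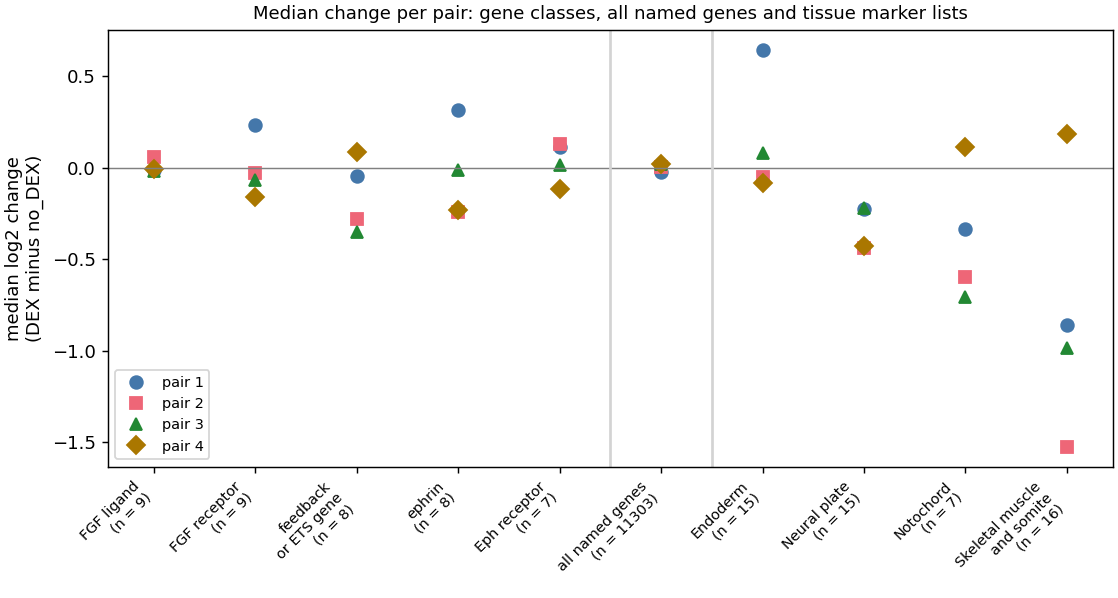
Median log2 change (DEX minus no_DEX) in each of the 4 pairs of arrays for 5 gene classes, for all named genes and for 4 lists of tissue markers, with the number of genes under each name. Each symbol is the median over genes in 1 pair, genes at background included. Ephrins and FGF receptors are highest in pair 1, where the endoderm list is also highest (0.64). The epidermis and neural crest lists, also highest in pair 1, are not drawn. The feedback class is below 0 in pairs 2 and 3 and above 0 in pair 4.

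Levels also differed between replicate numbers. For each gene the DEX and no_DEX arrays of a number were averaged. Above background the widest range of these averages was that of fgfrl1.L, with 8.31, 9.12, 8.45 and 8.85 for numbers 1 to 4. For fgf20.L they were 6.41, 6.39, 7.11 and 6.95. The averages of fgfr2.L were 8.33, 8.44, 8.89 and 9.04, and those of spred1.L were 6.05, 5.94, 5.34 and 5.41. Numbers 3 and 4 thus had more fgf20.L and fgfr2.L signal and less spred1.L signal than numbers 1 and 2, averaged over the groups.

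Xenopus laevis carries most genes as homeologs, and 10 of these genes had both measured. In 7 of the 10 both homeologs were above background, and 5 of those 7 stood on the same side of 0: dusp6, efnb2 and epha4 below, ephb3 and fgfr4 above. The other two were efna1, where both were within 0.04 of 0, and spry2. The widest gap in change between homeologs above background was in spry2 (0.30), then in epha4. There the .S copy stood lower than the .L copy by 0.25 and in 4 of 4 pairs. For epha4, as for efnb2, both probe sets come from a shared sequence cluster, so the homeologs may not be separate measurements. Probe sets differ in how strongly they bind, so levels of homeologs were not compared.

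In all, 3 of the 49 genes were higher in 4 of 4 pairs (fgf13.L, ephb3.S and fgfr4.S, 6.12%, against 10.9% of all probe sets) and 7 were lower in 4 of 4 (14.3%, against 10.3%). The 7 were efnb2.L, efnb2.S, epha4.S, etv1.S, etv4.L, spred1.L and fgf7.L, the last at background. For etv4.L this holds for the brightest probe set only, since its other probe sets each had 1 of 4 pairs above 0. For etv1.S, 1 of the other probe sets had 2 of 4 pairs above 0. The values of etv1.S and etv4.L are not separate measurements, and those of efnb2.L and efnb2.S may not be. The share of 14.3% thus counts some signal more than once and cannot be read as an excess. The 48 genes that did not pass stood at −0.41 to 0.35, and 38 of them were within 0.2 of 0. Their 95% intervals in the fit with the block ran from −0.64 to 0.67 at their outer ends, and from −0.82 to 0.92 in the fit without it.

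Genes that act behind the receptors were read from lists of pathway members. Of 21 genes that carry the FGF signal inward (adaptors, Ras, Raf, MEK and ERK), 0 passed in either fit and the median change was −0.01. Above background the 2 highest values were those of nras.L, a Ras gene, at 0.20 and the Raf gene araf.L at 0.17. The 2 lowest were those of plcg1.S, a phospholipase that binds the receptors, at −0.14 and the adaptor gene grb2.S at −0.10. Their measured homeologs differed from them, with grb2.L at 0.10, plcg1.L at −0.02 and araf.S at −0.02. Of 34 targets and modulators of FGF signalling 0 passed, and 24 stood above 0 (median 0.06). The caudal homeobox gene cdx1.S stood at 0.46 and the ETS gene ets2.L at 0.42, both higher in 4 of 4 pairs (adjusted p = 0.228 and 0.111 with the block). The heparan sulphate sulphatase gene sulf2.L stood at −0.43 and the ETS gene etv2.L at −0.22 (0.140 and 0.481). The homeologs ets2.S and sulf2.S stood closer to 0, at 0.14 and −0.006.

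Of 33 genes listed as acting behind Eph receptors and ephrins, 0 passed without the block (median change −0.04). The blocked fit called 3 higher and 0 lower, against 0.329% and 0.224% of all probe sets. The called genes were chn1.L, kalrn.L and rnd1.S. Without overlap of the groups, 3 of the 33 stood higher (chn1.L, rnd1.S and rnd1.L) and 1 lower, against 1.58% and 1.18% of all probe sets. The list was chosen with earlier results of these data known. A role of its genes behind Eph receptors was not tested. The gene chn1 encodes alpha-chimaerin, a Rac inhibitor that acts behind EphA4 in mouse motor circuits. Its chn1.L probe set measured 8.71, 8.58, 8.39 and 8.79 with dexamethasone and 7.93, 7.52, 7.30 and 7.94 without. The groups did not overlap, and the change was 0.94 or 1.92-fold (adjusted p = 0.0156 with the block, 0.272 in the unblocked fit). The other two chn1.L probe sets had means of 5.15 and 3.71 and stood at 0.40 and 0.35 without passing (0.242 and 0.238 with the block). In blocked fits that dropped 1 pair, chn1.L passed without pair 1 or 4 and not without pair 2 (adjusted p = 0.0950) or 3 (0.0563).

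The exchange factor gene kalrn.L, known for dendritic spines, measured 8.81, 9.09, 8.40 and 8.76 with dexamethasone and 8.01, 8.48, 8.02 and 8.30 without. The groups overlap, since DEX replicate 3 lay below no_DEX replicate 2, but 4 of 4 pairs were higher. The change was 0.56 (blocked adjusted p = 0.0499, unblocked 0.895), and a second kalrn.L probe set at a mean of 5.16 stood at −0.04. The GTPase gene rnd1.S, which lowers cell adhesion in frog embryos, measured 10.58, 10.68, 10.49 and 10.56 with dexamethasone and 10.12, 10.20, 10.10 and 10.05 without. The groups did not overlap, and the pair changes lay close together at 0.45, 0.47, 0.39 and 0.51. The change of rnd1.S was 0.46 (blocked adjusted p = 0.0499, unblocked 0.296), and its homeolog rnd1.L stood at 0.30 without passing (0.165 with the block). A second rnd1.L probe set (mean 10.67) stood at 0.17 (0.57 with the block). Both calls at 0.0499 lie at the threshold and were lost with any pair left out and with array medians centred. The kalrn.L call was also lost when only probe sets above background were tested.

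**Figure D4:**
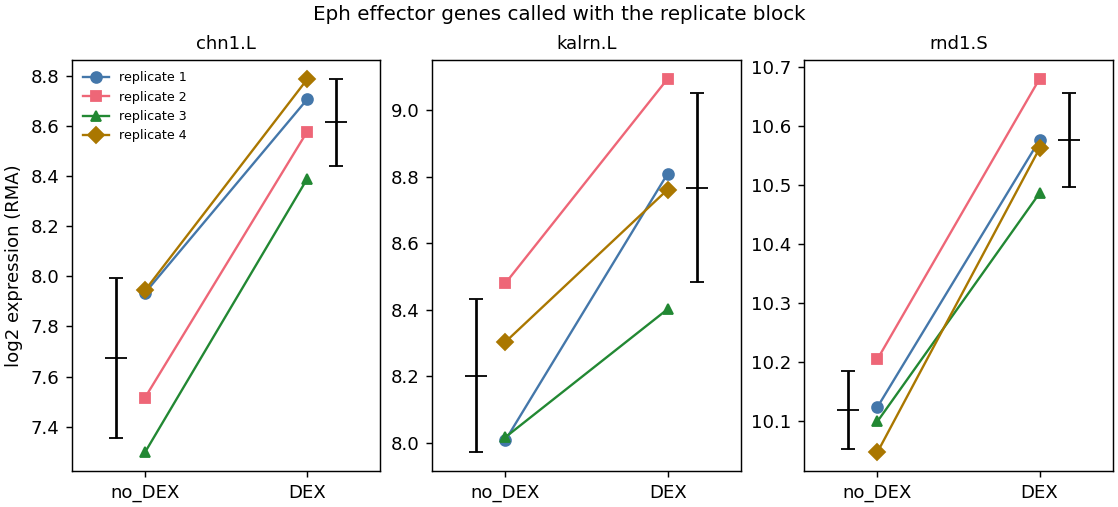
Log2 expression of chn1.L, kalrn.L and rnd1.S on each array, with lines joining arrays of the same replicate number and black bars for the group mean and SD (n = 4). The panels have separate vertical axes. All 3 are higher with dexamethasone in 4 of 4 pairs, and the groups do not overlap for chn1.L and rnd1.S.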

How the data were processed

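RNA of 8 samples was measured on Affymetrix arrays, and the deposited table holds log2 expression values, 1 column per array. Per the submitters' processing notes the values were made with RMA (background correction, quantile normalization, summary over probes), whose version is not given in the sources used here. Per the labels' protocols, labelled cRNA was made from typically 10 µg of total RNA.

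Of 32635 probe sets, 96 controls were left out and 32539 were tested. The platform annotation gave 1 symbol to 15495, several to 279, and did not list 16765. Of the 49 symbols, 48 were found in the RefSeq gene list for Xenopus_laevis_v10.1. A gene whose symbol begins with fgf is left out by the selection rule and not reported here. The 49 genes and all gene lists were chosen with earlier results of these data known.

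The group difference was fitted without and with the replicate number as a block, using lmFit and eBayes of limma 3.58.1 (R 4.3.3), with two-sided tests and Benjamini-Hochberg adjustment over all probe sets. Deviations of same-numbered arrays from their group means correlated at 0.63, 0.78, 0.77 and 0.69, each above the limit of 0.1, against at most 0.20 between other numbers, and arrays of a number were therefore treated as pairs. The pairing comes from these values, since no label says what a number stands for. The fits were tested on simulated data with known changes and independent noise, whose spread was estimated with the block. Such data cannot show which fit suits these arrays. The 8 arrays limit the precision, and p-values measure the spread between these samples only. The text names the genes called in either fit, fgf13.L, all FGF receptors, and in each class the 3 largest rises and 3 largest falls above background with their homeologs and other probe sets. It also names the called genes of the pathway lists, or their 2 largest rises and falls, with homeologs where measured. The remaining genes are named with values to account for all 49. Alternatives were the block, dim probe sets left out, medians centred, a repeated quantile normalization, a variance trend, averaged probe sets and arrays or pairs left out.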

Additional observations from a re-analysis of the deposited data

Results flagged for a closer look

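Among the genes named above, an array far from the other 3 of its group, by Dixon's 95% limit, was seen in 3 of 86 groups of arrays. Chance gives about 1 in 20. For fgf13.L it was DEX replicate 4, at 5.62 against 4.36 to 4.50. For fgfr3.L it was no_DEX replicate 2, at 7.50 against 6.65 to 6.72, and without it the change of fgfr3.L was −0.14. For efnb2.S it was no_DEX replicate 1, at 10.90 against 11.03 to 11.06.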

How the results depend on the processing

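The count of genes higher with dexamethasone was 0 without and 1 with the replicate block, and the count lower was 0 in both. With the block, the count higher was 0 to 1 with a pair left out and 0 when only probe sets above background were tested, since fgf13.L is then not among them. The last setting and median centring with the block were chosen after seeing the data. Some class medians moved when arrays or pairs were left out: Eph receptors ranged over −0.11 to 0.11, FGF homologous factors over 0.34 to 0.59, FGF ligands over −0.0531 to 0.0794 and the 4 genes of other kinds over 0.0435 to 0.111. Above background the last median was 0.0526. A class was listed as moved where its median shifted by at least the SD of its own pair medians, a wide limit where pairs differ. The ephrin and FGF receptor medians stayed within that limit but also fell on both sides of 0. They ranged over −0.134 to 0.0510 and −0.0834 to 0.0344. Of 32 named genes, 15 changed sign in some setting; the largest of them stood at 0.15 with all arrays, and 0 were called. With arrays or pairs left out they ranged as follows. Ephrins: efna3.L −0.176 to 0.0392, efna4.L −0.0435 to 0.173, efnb1.L −0.13 to 0.15 and efnb3.L −0.0537 to 0.203. Receptors: ephb4.L −0.137 to 0.0225, fgfr1.L −0.0834 to 0.130, fgfr3.S −0.0196 to 0.0584, fgfr4.L −0.0205 to 0.293 and fgfrl1.S −0.153 to 0.0275. Others: fgf10.S −0.0603 to 0.0473 (0.00668 with probe sets averaged), fgf3.L −0.12 to 0.21, spry2.S −0.0349 to 0.226, fgfr1op2.S −0.0715 to 0.0894, spryd4.S −0.000882 to 0.217 and spryd7.S −0.00629 to 0.104. The cause was not tested. In all of these settings fgf13.L stayed above 0 (0.69 to 1.21) and efnb2.L, efnb2.S and epha4.S below 0. Signal over background limits 14 of the 49 genes, which had means at or under 4.40.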
